A study of Mus musculus with 8 samples.

Results

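Complement is a cascade of plasma and tissue proteins that tags cells, debris and microbes and calls in phagocytes. Of it, 9 genes of adipocytes and macrophages were chosen by name, and a gene counted as measured where a probe carried its symbol alone. Of the 9, 7 were measured, each by 1 probe, out of 16504 genes with such a probe: C1qa, C1qb, C1qc, C3ar1, C4b, Cfb and Serping1. C3 and Cfd had no probe that named them, so the central component of the cascade and adipsin, the factor D that adipocytes secrete, were not analysed here.

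RNA came from the epididymal fat of polygenic obese mice and was measured on 8 arrays of 2 channels. On each array a pool from treated mice, which ate conjugated linoleic acid (CLA), a fatty acid studied because it lowers fat mass, was set against a pool from control mice, which ate linoleic acid (LA). There were 4 arrays from day 14 of the trial and 4 from day 5, and every RNA was a pool of 4 or 5 mice. The CLA pool carried Cy5 and the LA pool Cy3 on arrays 1 and 2, and the dyes were exchanged on arrays 3 and 4, on both days. The labels give no sex, age, dose or isomer, and do not say whether arrays share a pool, so the p-values cover only how these arrays differ, which may be technical.

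Values are log2 ratios of CLA over LA, so a value above 0 means a higher signal in the CLA pool. That direction is likely and not stated: CLA is the treatment, and the sign of the thermogenic gene Ucp1 at day 14 was known when it was chosen. The values were read as log10 ratios whose sign the authors had already turned on arrays 3 and 4, because 473 probes with no single gene name were lower on arrays 1 and 2 than on arrays 3 and 4 by over 2 log2 units on both days. Read this way, the ratios of arrays with opposite dyes ran against each other across genes, with a median correlation of −0.356 (−0.611 to 0.0309), against 0.537 for arrays with the same dyes. With arrays 3 and 4 turned instead, the day 14 ratios were −0.25 for C1qa, −0.12 for C1qb, 0.54 for C1qc, 0.34 for C3ar1, −0.51 for C4b, −0.02 for Cfb and −0.14 for Serping1, so the C1qa and C1qb signs below rest on that reading. Were every ratio LA over CLA, all signs below would be reversed, and were the values log2 already, all log2 sizes would be 3.32 times too large. A 2-colour ratio gives no level, so neither the abundance of a gene nor the adipose identity of the tissue could be read from these values. In a tissue, fewer cells of a type and less RNA per cell cannot be told apart.

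Background on the 7 genes is as follows. C1qa, C1qb and C1qc encode the A, B and C chains of C1q, which recognises antibody complexes and dying cells, starts the classical pathway and is made in tissues mostly by macrophages. C4b encodes C4, the next component of that pathway, and Cfb encodes factor B, which forms the convertase of the alternative pathway after cleavage by factor D. Serping1 encodes the C1 inhibitor, a serine protease inhibitor that stops the C1 complex and is made by liver, fibroblasts and other stromal cells. C3ar1 encodes the receptor for C3a, a fragment released from C3, and is found on macrophages and other myeloid cells. In adipose tissue the fat cells themselves make factor D, factor B and C3.

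The C1q genes lie side by side, with C1qc between C1qb and C1qa in the RefSeq gene table. Promoter windows of 250 bases before the gene start were held by the RefSeq promoter table (build GRCm38.p6) for 3 of the 7 measured genes, the 3 with the smallest day 14 p-values in the fit of all 8 arrays. They are shown because macrophage genes are often bound by the ETS factor PU.1. Capitals mark GAGGAA or its reverse complement TTCCTC, a longer form of the core GGAA that PU.1 shares with other ETS factors. The core GGAA outside that form is not marked. Each sequence is written 5′ to 3′ along the gene.
C1qb (chr4:136886201-136886450, minus strand): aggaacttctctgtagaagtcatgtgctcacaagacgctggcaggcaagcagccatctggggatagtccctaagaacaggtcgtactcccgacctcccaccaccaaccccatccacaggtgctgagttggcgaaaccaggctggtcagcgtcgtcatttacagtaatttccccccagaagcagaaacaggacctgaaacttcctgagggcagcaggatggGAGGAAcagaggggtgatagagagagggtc
C1qc (chr4:136892915-136893164, minus strand): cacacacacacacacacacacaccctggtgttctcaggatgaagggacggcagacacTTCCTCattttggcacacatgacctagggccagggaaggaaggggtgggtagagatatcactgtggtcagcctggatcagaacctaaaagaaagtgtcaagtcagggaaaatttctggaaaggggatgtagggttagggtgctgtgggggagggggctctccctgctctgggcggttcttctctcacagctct
C3ar1 (chr6:122856158-122856407, minus strand): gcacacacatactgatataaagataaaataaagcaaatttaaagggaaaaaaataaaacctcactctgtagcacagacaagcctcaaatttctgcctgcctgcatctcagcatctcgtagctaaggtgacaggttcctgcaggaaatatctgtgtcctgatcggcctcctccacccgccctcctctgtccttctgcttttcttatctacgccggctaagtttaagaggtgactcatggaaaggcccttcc
C1qb held 1 match on the strand shown, with its first base 30 bases before the start, and C1qc held 1 on the other strand, with its first base 193 bases before the start. The C3ar1 window held 0 matches to the longer form, although the shorter GGAA stands in it unmarked. Of all 32851 windows of the table, 23.3% held the motif on either strand, so a match is common and describes letters only.

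At day 14 the 3 C1q genes and C3ar1 had mean ratios above 0, and C4b, Cfb and Serping1 had mean ratios below 0. None of the 7 passed the test over all genes in limma's fit of the 8 arrays, which called 0 of 16504 genes at a Benjamini-Hochberg adjusted p under 0.05 (0%). At an unadjusted p under 0.05 in that fit, 3 of the 7 were higher, C1qb, C1qc and C3ar1, and 0 were lower. Over all genes 4.24% were higher and 5.53% lower by that rule, and the median log2 ratio was 0.00, against 0.29 over the 7 genes.

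C1qb, the B chain, had log2 ratios of 0.55, 0.05, 0.63 and 0.44 on arrays 1 to 4 of day 14, against 0.05, −0.10, −0.24 and −0.10 on arrays 1 to 4 of day 5. All 4 day 14 arrays were above 0, which held for 6.3% of all genes, and the lowest of them reached down to the highest day 5 array. The fitted day 14 ratio was 0.41 ± 0.11 (SE, n = 4 arrays), a 1.33-fold difference, with a 95% confidence interval of 0.16 to 0.67 (limma, unadjusted p = 0.00622, adjusted p = 0.322). At day 5 it was −0.10 ± 0.11 (limma, adjusted p = 0.715).

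C1qc, the C chain, had 1.29, 0.82, 0.14 and −0.20 on arrays 1 to 4 of day 14, against 0.30, 0.14, −0.60 and −0.19 on arrays 1 to 4 of day 5. On both days arrays 1 and 2 were above arrays 3 and 4, so the dye orientations stood apart within each day. The day 14 mean was 1.05 over arrays 1 and 2 and −0.03 over arrays 3 and 4. The fitted day 14 ratio, with a term for dye, was 0.51 ± 0.13 (SE, n = 4), or 1.43-fold (95% interval 0.21 to 0.82; limma, unadjusted p = 0.00468, adjusted p = 0.305).

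C1qa, the A chain, had 0.23, −0.15, 0.64 and 0.45 on arrays 1 to 4 of day 14, against −0.14, −0.29, −0.45 and 0.27 on arrays 1 to 4 of day 5. Here arrays 3 and 4 of day 14 were the high ones, with a mean of 0.55, against 0.04 over arrays 1 and 2, the opposite order to C1qc. The fitted day 14 ratio was 0.29 ± 0.14 (SE, n = 4), with an interval of −0.02 to 0.61 (limma, adjusted p = 0.547). The fitted dye terms of the 3 chains were −0.31 for C1qa, −0.04 for C1qb and 0.85 for C1qc, although their products assemble into 1 protein.

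C3ar1, the C3a receptor, had 0.74, 0.80, 0.29 and −0.11 on arrays 1 to 4 of day 14, against 0.73, 0.18, −0.22 and 0.52 on arrays 1 to 4 of day 5. On each day 3 of the 4 arrays were above 0 and the ranges of the days overlapped. The fitted ratio was 0.43 ± 0.15 at day 14 (limma, unadjusted p = 0.0243, adjusted p = 0.43) and 0.30 ± 0.15 at day 5 (adjusted p = 0.431). The other 6 genes had fitted ratios below 0 at day 5, although C1qb and C1qc stood at 0.07 and 0.31 with arrays 3 and 4 turned and C1qc at 0.03 with each array scaled to the mean spread.

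**Figure D1:**
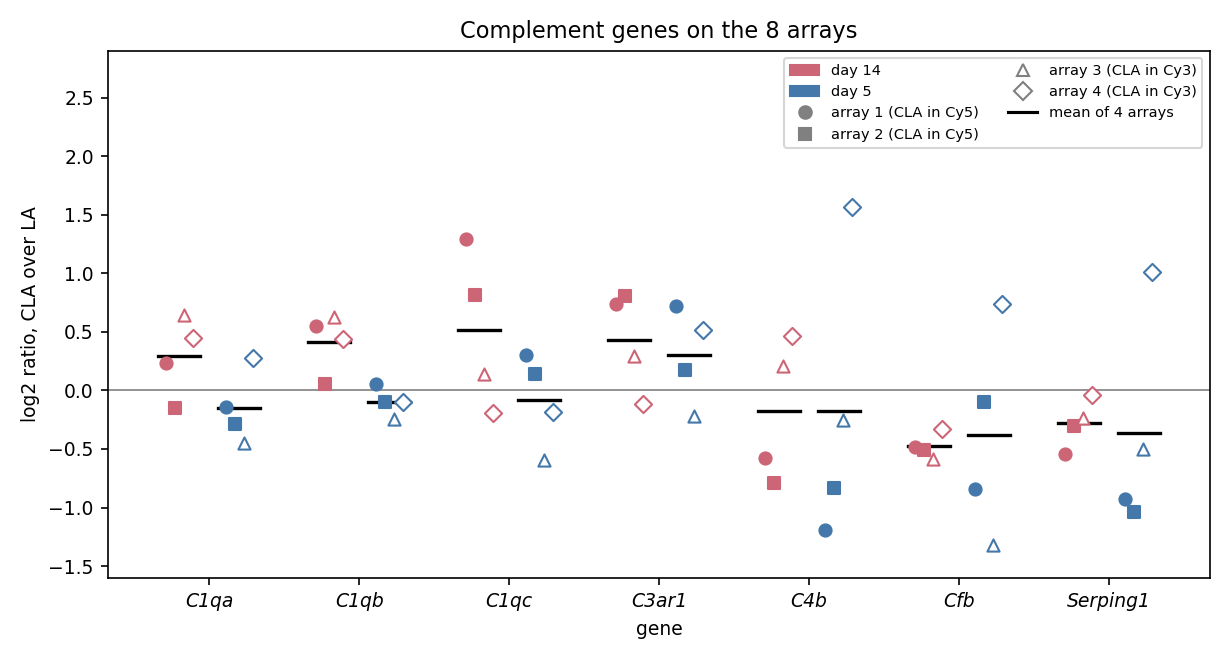
Log2 ratio of CLA over LA (vertical axis) of the 7 measured complement genes on each array, day 14 left of day 5 for each gene, with a symbol for each array number, filled where CLA carried Cy5 and open where it carried Cy3; black lines are means of 4 arrays. All 4 day 14 points of C1qb lie above 0 and all 4 of Cfb and Serping1 below it, while the array 4 points of C4b, Cfb and Serping1 at day 5 stand at 1.56, 0.74 and 1.01.

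Cfb, factor B, had −0.48, −0.51, −0.58 and −0.33 on arrays 1 to 4 of day 14, against −0.84, −0.10, −1.32 and 0.74 on arrays 1 to 4 of day 5. The day 14 arrays lay close together, with an SD of 0.11, and all 4 were below 0, as for 7.06% of all genes, whereas the day 5 arrays spread over an SD of 0.90. The fitted day 14 ratio was −0.48 ± 0.29 (SE, n = 4) in the fit of all arrays, which shares 1 estimate of spread between the days (limma, adjusted p = 0.672). Fitted on the day 14 arrays alone, the same ratio had an SE of 0.08 (limma, unadjusted p = 0.0012, adjusted p = 0.0561), the smallest p of the 7 genes there.

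Serping1, the C1 inhibitor, had −0.54, −0.31, −0.24 and −0.04 on arrays 1 to 4 of day 14, against −0.93, −1.04, −0.50 and 1.01 on arrays 1 to 4 of day 5. All day 14 arrays were below 0, and at day 5 array 4 alone was above it. The fitted ratio was −0.28 ± 0.24 at day 14 (limma, adjusted p = 0.798; SE 0.08 and adjusted p = 0.158 with the day 14 arrays alone) and −0.36 ± 0.24 at day 5 (adjusted p = 0.518).

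C4b, complement C4, had −0.58, −0.79, 0.21 and 0.47 on arrays 1 to 4 of day 14, against −1.19, −0.83, −0.25 and 1.56 on arrays 1 to 4 of day 5. It was below 0 on arrays 1 and 2 of both days, and its dye term of −1.34 was the largest in size of the 7 genes. The fitted ratio was −0.17 ± 0.26 at day 14 (interval −0.79 to 0.44; limma, adjusted p = 0.913) and −0.18 ± 0.26 at day 5 (adjusted p = 0.78). C4a, a near-identical neighbour, had no probe of its own, so which of the 2 genes the C4b probe read is uncertain.

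With the day 14 arrays alone, limma called 260 genes (1.58%) and 0 of the 7. Without array 1 or array 2 that fit called 1 gene, without array 3 it called 68 and without array 4 it called 156, with 0 of the 7 each time. At an unadjusted p under 0.05 in that fit, 4 of the 7 were higher, C1qa, C1qb, C1qc and C3ar1, against 7.46% of all genes, and 2 were lower, Cfb and Serping1, against 11.7%. The day 14 arrays had residuals of 0.198 to 0.24 log2 units (root mean square over genes), against 0.235 to 0.56 on the day 5 arrays. Within an array, repeated probes of 1 gene varied by an SD of 0.0659 to 0.141 log2 units (median over 48 genes). Fitted on the day 5 arrays alone, 0 of the 7 had an unadjusted p under 0.05, against 1.15% of all genes higher and 3.48% lower.

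**Figure D2:**
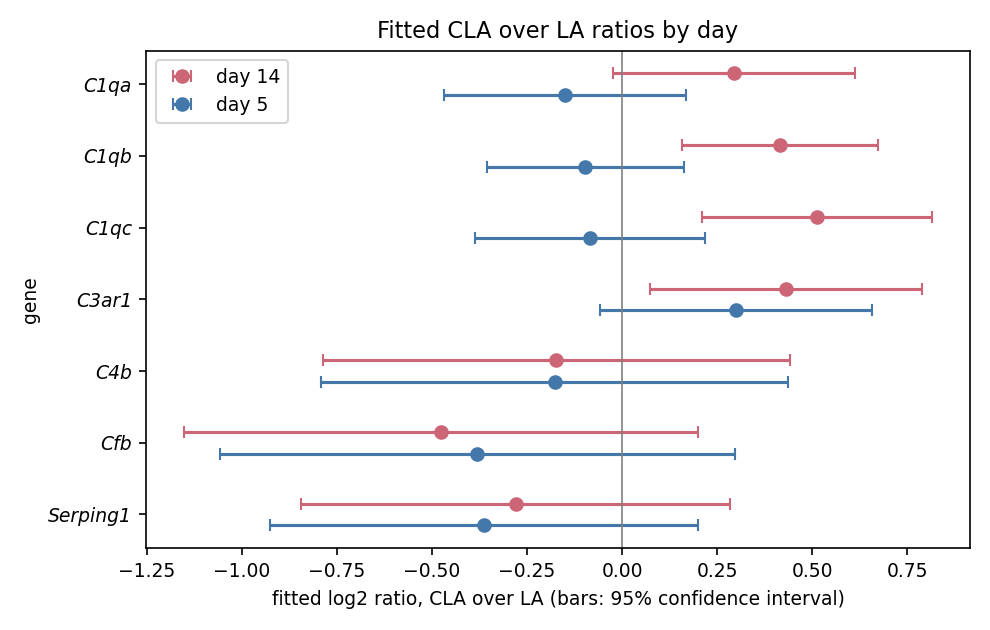
Fitted log2 ratio of CLA over LA (horizontal axis) for the 7 complement genes, day 14 above day 5 for each gene, with bars for the 95% confidence interval of limma's fit of all 8 arrays. At day 14 the intervals of C1qb, C1qc and C3ar1 lie above 0, and every day 5 interval holds 0.

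Day 14 minus day 5 was tested as a contrast of its own. It was 0.60 ± 0.18 for C1qc, 0.51 ± 0.16 for C1qb and 0.44 ± 0.19 for C1qa (SE, n = 8 arrays). C1qb and C1qc had an unadjusted p under 0.05 (limma, 0.0123 and 0.0125), as 2.81% of all genes did in that direction (1.44% in the other), and neither passed over all genes (adjusted p = 0.892), where 0 genes were called (0%). Without day 5 arrays 3 and 4 that of C1qb was 0.32 (unadjusted p = 0.161) and that of C1qc 0.83 (0.00807), and Serping1 stood at 0.56 (0.0109). With arrays 3 and 4 of both days turned, C1qa and C1qb were both at −0.19 and C1qc at 0.23. For the other 4 genes, fitted on all arrays, the difference was smaller than its SE: 0.13 ± 0.22 for C3ar1, 0.08 ± 0.34 for Serping1, 0.00 ± 0.37 for C4b and −0.10 ± 0.41 for Cfb. For none of the 7 genes were all day 14 arrays above or all below the day 5 arrays; 0.533% of all genes lay wholly higher and 0.303% wholly lower at day 14.

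At day 5, an unadjusted p under 0.05 was reached by 0 of the 7 in either direction (limma, all arrays), where 4.19% of all genes were higher and 9.17% lower, and 0 genes passed the adjusted threshold (0%). On that day 0 of the 7 had all 4 arrays above 0 (2.25% of all genes) and 0 had all 4 below it (3.24%). Arrays 3 and 4 of day 5 carried the largest residuals, 0.56 and 0.447. On array 3 the 10 measured epididymis and testis markers had a median of 3.49, and 6 of them exceeded 1 while the other 4 were below 0, down to −2.06. Lcn5, Lcn8 and Adam7, secreted or surface proteins of the epididymis, were among those 4, at −2.06, −0.43 and −1.59. On the other 7 arrays the median ran from −0.36 to 0.27, although single markers lay far from it. On day 5 array 1 the median was 0.05, while 4 of the 10 exceeded 1, with Lcn5 at 2.83. At day 14 Lcn5 was at −2.45 on array 2 and −5.03 on array 3. The complement genes were all below 0 on array 3, from −1.32 to −0.22. On array 4 all 21 measured adipocyte markers were above 0 with a median of 0.70, against medians from −1.38 to −0.03 on the other 7 arrays, and C4b, Cfb and Serping1 were highest there. The part of these transcripts in the complement values was not tested.

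Without day 5 array 4, C4b stood at −0.60 ± 0.12 at day 5, Cfb at −0.81 ± 0.20 and Serping1 at −0.76 ± 0.10, and these 3 of 7 genes had an unadjusted p under 0.05 (limma, 0.00157, 0.00506 and 0.000145), where 14.6% of all genes were lower by that rule, and none passed over all genes. Without both arrays 3 and 4, Serping1 and C4b were lower at an unadjusted p under 0.05 (limma), where 6.35% of all genes were. That fit kept only arrays with CLA in Cy5 at day 5. Its day 5 ratios therefore rest on a dye term estimated from the day 14 arrays alone. Without day 5 array 3, C3ar1 stood at 0.41 ± 0.17 (limma, unadjusted p = 0.0438, as in 5.94% of all genes higher), while C1qa, C4b and Cfb moved to the other side of 0, at 0.03 ± 0.10, 0.12 ± 0.24 and 0.02 ± 0.22. The day 14 ratios of the 7 genes were the same without either array or without both, as they had to be. With dyes balanced at day 14, each is the mean of the day 14 arrays whatever the day 5 arrays hold. The standard errors of the day 14 ratios changed. Without day 5 array 3, 4 of the 7 were higher at day 14 at an unadjusted p under 0.05 (6.09% of all genes), C1qa added (0.0109), and Cfb was lower (0.0353; 8.97%). Without day 5 array 4, 3 were higher (5.1%), and Cfb (0.0254) and Serping1 (0.0129) were lower (7.81%). Without both, 4 were higher (6.99%), C1qa added (0.0164), and Cfb (0.0104) and Serping1 (0.0109) were lower (10.3%).

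The genes were then set beside lists of cell type markers, not all of them of cells named above as sources of these genes. At day 14 macrophage markers had a median of 0.61, with 25 of 30 measured above 0. Of these 30, 20 were higher and 1 lower at an unadjusted p under 0.05 (limma, all arrays), and 0 passed over all genes. Of all genes 4.24% were higher and 5.53% lower by that rule. By array the macrophage median was 1.14, 0.46, 0.61 and −0.08 at day 14, against 0.60, 0.05, −0.20 and 0.12 at day 5. The mean of the 3 C1q genes was 0.69, 0.24, 0.47 and 0.23 at day 14, against 0.07, −0.08, −0.43 and −0.00 at day 5. The macrophage median was above the C1q mean on 3 of the 4 day 14 arrays. Named here are the 3 markers of smallest unadjusted p at day 14, while 5 of the 30 were below 0. The lysosomal protease Lgmn stood at 0.74 ± 0.16, the lipid receptor Trem2 at 1.00 ± 0.22 and the surface marker Adgre1 at 0.84 ± 0.20 (SE, n = 4). Their adjusted p-values were 0.262, 0.262 and 0.297 (limma, all arrays). Adgre1 had 1.87, 1.02, 0.68 and −0.22 on arrays 1 to 4 of day 14.

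C3ar1 and C1qc lay closer to the macrophage median than to that of any of the other 5 lists, with root mean square differences of 0.26 and 0.30 log2 units over the 8 arrays. C1qb lay closer to the neutrophil, T and B cell median, at 0.35, than to the macrophage median, at 0.38. C1qa was at 0.39 from the neutrophil, T and B cell median, 0.49 from the fibroblast and mesothelial median and 0.53 from the macrophage median. This measure depends on size. By array the neutrophil, T and B cell median ran from −0.36 to 0.27 and the macrophage median from −0.20 to 1.14. A gene with small ratios lies near the first of these whatever its source. For Cfb, Serping1 and C4b the difference from the macrophage median was 1.05, 1.03 and 1.18. By day the order changed for C1qc and C1qb. At day 5 C1qc was nearer to the neutrophil, T and B cell (0.21) and fibroblast and mesothelial (0.22) medians than to the macrophage median (0.30). At day 14 C1qb was nearer to the macrophage median (0.44) than to the neutrophil, T and B cell median (0.46). These comparisons with list medians were chosen after the values had been seen and carry no test.

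Over the 8 arrays Cfb lay closest to the adipocyte median, at 0.20, and next to the endothelial median, at 0.28. At day 5 Cfb differed from it by a root mean square of 0.07 log2 units over 4 arrays on which that median itself was −0.95, −0.03, −1.38 and 0.70. At day 14 Cfb was nearer to the endothelial median (0.22) than to the adipocyte median (0.28), which was −0.34, −0.53, −1.03 and −0.61. Of 21 measured adipocyte markers 17 were below 0 at day 14 (median −0.59), 7 of them at an unadjusted p under 0.05 (limma, all arrays). Of all genes 5.53% were lower by that rule. With the day 14 arrays alone 6 of the 21 were called lower over all genes, where 1.58% of all genes were called in either direction. Of the 6, 0 were still called without array 1 or array 2, 2 without array 3 and 5 without array 4. The 6 include Adipoq, the hormone adiponectin, at −2.03 ± 0.62 and Pck1, an enzyme of glycerol synthesis in fat, at −0.82 ± 0.26 (SE in the fit of all arrays). Serping1 and C4b lay closest to the endothelial median, at 0.35 and 0.54. That median was −0.31 at day 14, with 13 of 14 members below 0 and 3 lower at an unadjusted p under 0.05 (5.53% of all genes). Fibroblast and mesothelial markers had a median of −0.08 at day 14. By the same rule 6 of 19 were higher (4.24% of all genes) and 4 lower (5.53%). Neutrophil, T and B cell markers had a median of 0.02, with 1 of 13 higher (4.24% of all genes). What share of each complement ratio these cell types carry was not tested.

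**Figure D3:**
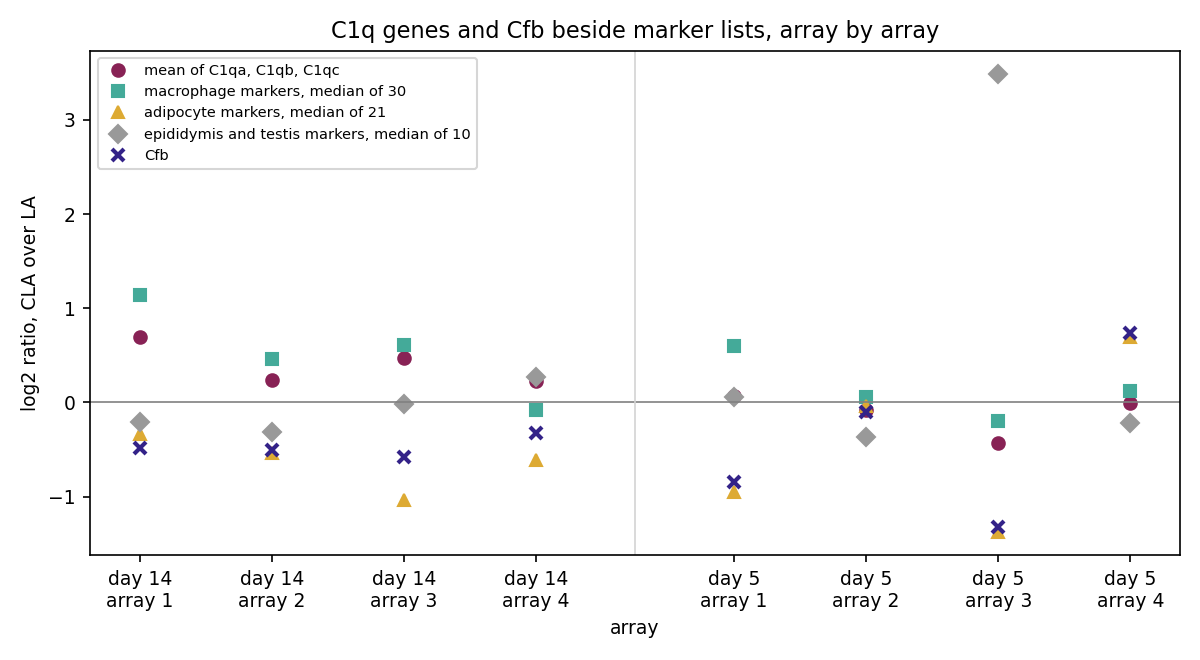
Log2 ratio of CLA over LA (vertical axis) on each array, day 14 at left and day 5 at right, for the mean of the 3 C1q genes, for Cfb, and for the medians of macrophage, adipocyte, and epididymis and testis markers. Cfb lies beside the adipocyte median on all 4 day 5 arrays, and the epididymis and testis median stands at 3.49 on day 5 array 3.

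The genes outside the 9 whose 8 values were nearest to the C1q mean were Abca7, P2ry6, Hgf, Timm10 and Tmem119. Their root mean square differences from it were 0.113, 0.123, 0.147, 0.152 and 0.156 log2 units, against a median of 0.515 over all genes. C1qb itself differed from that mean by 0.144, C1qa by 0.274 and C1qc by 0.378. Abca7 is a lipid transporter involved in phagocytosis, P2ry6 a nucleotide receptor of macrophages and microglia, Hgf hepatocyte growth factor, Timm10 a mitochondrial import chaperone and Tmem119 a membrane protein used as a microglial marker. Their day 14 means ran from 0.30 for Timm10 to 0.51 for Tmem119.

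Of 47 other complement genes listed, 39 were measured. At day 14, 4 were higher and 1 lower at an unadjusted p under 0.05 and 0 passed over all genes (limma, all arrays), with a list median of 0.01. Of all genes 4.24% were higher and 5.53% lower by that rule. The 4 higher ones of the list included 3 receptors of myeloid cells. C5ar1, the receptor for C5a, had 0.13, 0.44, 1.27 and 1.13 on arrays 1 to 4 of day 14, against 0.44, −0.67, 0.54 and 0.63 on arrays 1 to 4 of day 5. All 4 day 14 arrays were above 0, and the fitted ratio was 0.74 ± 0.17, or 1.67-fold (limma, unadjusted p = 0.00234, adjusted p = 0.271). Itgax and Itgam, the alpha chains of the complement receptors CR4 and CR3, stood at 0.91 ± 0.27 and 0.38 ± 0.14 (adjusted p = 0.363 and 0.433). Itgax, which the macrophage list holds too, had 2.30, 1.16, 0.80 and −0.64 on arrays 1 to 4, so array 4 went against the others. Cpn2, a subunit of the carboxypeptidase that inactivates C3a and C5a, was at 0.22 ± 0.08 (adjusted p = 0.468). Vtn, vitronectin, which blocks the membrane attack complex, had −0.52, −0.78, −0.39 and −0.52 on arrays 1 to 4 and a fitted ratio of −0.55 ± 0.23 (adjusted p = 0.486).

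With the day 14 arrays alone 3 of the 39 were called over all genes, where 1.58% of all genes were called. C5ar1 was higher (limma, adjusted p = 0.0348), and Vtn (0.0473) and the chaperone clusterin, Clu (0.0339), were lower. Leaving out any 1 of the 4 day 14 arrays took C5ar1 and Vtn past the threshold (adjusted p 0.0566 to 0.142 and 0.0896 to 0.164). Clu passed without array 4 alone (0.0385) and not without the others (0.0665 to 0.125). Clu had −0.80, −0.55, −1.46 and −0.99 on arrays 1 to 4 of day 14, against 2.50, −0.08, 1.42 and −0.38 on arrays 1 to 4 of day 5. At day 5, 0 of the 39 were higher and 4 lower at an unadjusted p under 0.05, a share near the 9.17% of all genes lower by that rule. They were C1ra, a protease of the C1 complex, at −0.54 ± 0.22, C9, a component of the membrane attack complex, at −0.38 ± 0.13, the regulator Cr1l at −0.36 ± 0.12 and the C1q-binding protein C1qbp at −0.24 ± 0.08 (limma, adjusted p 0.288 to 0.354). C9 and Cr1l were above 0 on arrays 1 and 2 and below 0 on arrays 3 and 4 of both days.

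**Figure D4:**
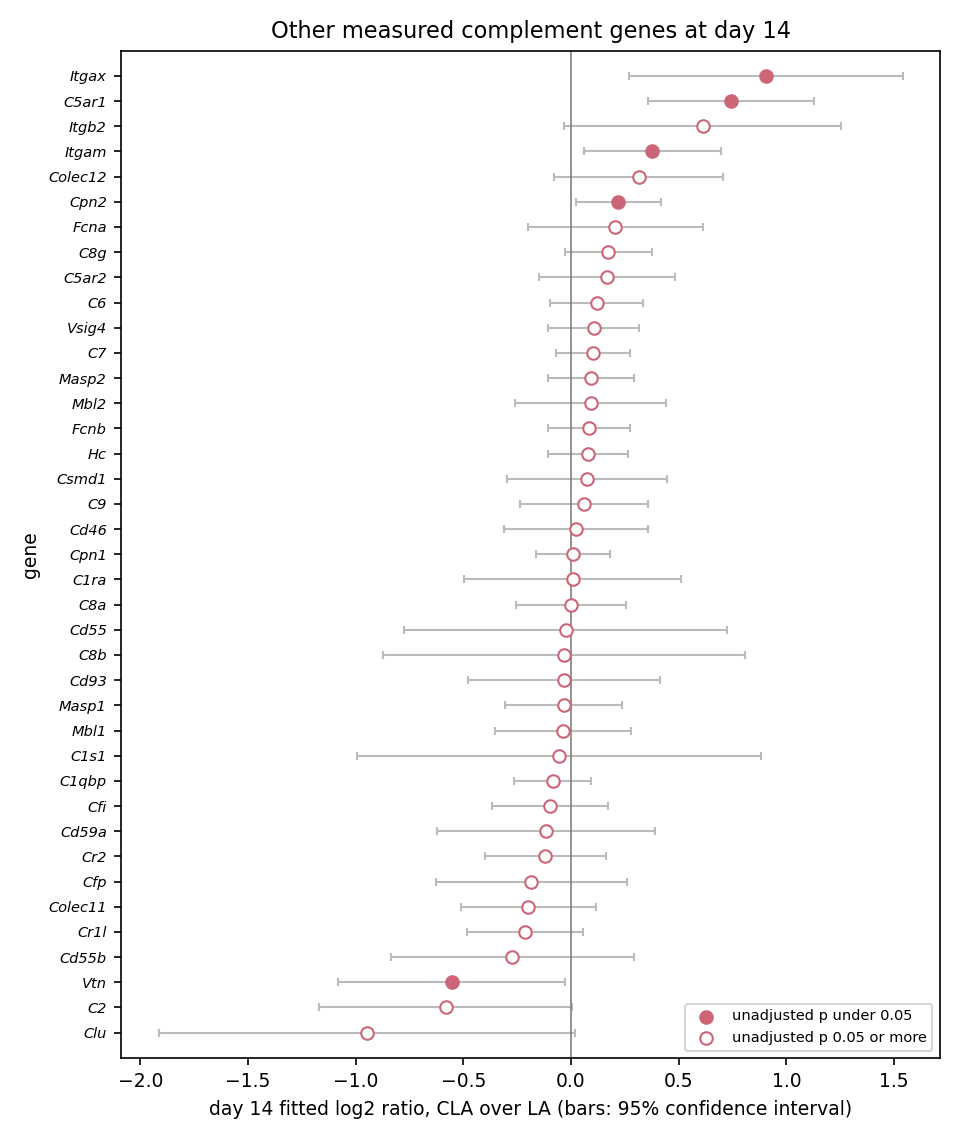
Day 14 fitted log2 ratio of CLA over LA (horizontal axis) for 39 other measured complement genes, ordered by value, with bars for the 95% confidence interval of limma's fit of all 8 arrays and filled points where the unadjusted p was under 0.05. Itgax, C5ar1, Itgam and Cpn2 are the filled points above 0 and Vtn the one below it.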

How the data were processed

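Per the labels, each of 8 arrays compared a CLA pool with an LA pool, 4 arrays at day 14 and 4 at day 5, with dyes exchanged on arrays 3 and 4. The deposited table holds 1 value for each of 22393 probes per array, with 0 missing. Its unit was inferred from the deposited values as a log10 ratio and multiplied by 3.32 to give log2; the labels name no scanner, background correction or normalization, and without intensities the number of arrays limits the precision. Column medians lay between −0.0176 and 0.0109, so no further centring was done.

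Of the probes, 18218 carried 1 symbol, 16 several and 4159 none in GEO's platform annotation; 18175 of the first were matched by Entrez number to GRCm38.p6 names, with 0 symbols changed. Probes of a gene were averaged, giving 16504 genes. Arrays were read as deposited: 473 probes with no single symbol differed by over 2 log2 units between orientations on both days, whereas 1 probe had a mean of that size.

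limma 3.58.1 in R 4.3.3 (lmFit, eBayes) was fitted over all genes and 8 arrays, with a mean per day and a dye term; calls used a Benjamini-Hochberg adjusted p under 0.05. The fit was tested on simulated data. Alternatives were the arrays of each day alone, no dye term, arrays 3 and 4 turned, centring and scaling. Array weights, probes, the replicate block and each array left out were others, and 2 were added after the data were seen. The members and lists were chosen with earlier results of these data known. Named were all measured members and genes of the wider list with an unadjusted p under 0.05 on either day. Up to 3 genes per marker list, those of smallest unadjusted p at day 14, and the 5 genes nearest to the C1q mean were named too. Cfd, planned likewise, was not measured. Clu, C2, Cfp and C1s1 were named after their values were seen.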

Additional observations from a re-analysis of the deposited data

Results flagged for a closer look

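Of 48 sets of 4 arrays examined, for the 7 complement genes, the 9 named genes of the wider list and the list medians, 4 had 1 array far from the other 3; chance alone marks about 1 in 20. The median of the epididymis and testis markers was 3.49 on array 3 of day 5. C5ar1 stood at −0.669 on array 2 of day 5, below the other 3 arrays. C1ra stood at 0.276 on array 1 of day 14, above the other 3. The median of the wider complement list was −0.00833 on array 2 of day 14, a gap of a few hundredths of a log2 unit. None of the 4 was a value of 1 of the 7 genes.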

How the results depend on the processing

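Over 350 combinations of a member, a comparison and an alternative, limma called the member over all genes in 0 and kept the sign of the first fit in 326. Dyes were balanced within each day and each member had 1 probe. The ratio of a day is therefore fixed with that day's arrays alone, without the dye term, by probes or with the replicate block. It is also fixed when an array of the other day is left out. The 326 thus counts many combinations whose sign could not change. With arrays 3 and 4 turned, C1qb changed sign to −0.12 at day 14 and −0.19 for day 14 minus day 5, C1qa to −0.25 and −0.19, Cfb to 0.07 for day 14 minus day 5, and C1qb and C1qc to 0.07 and 0.31 at day 5. Turned, 2089 genes were called at day 14 and 2140 at day 5 in place of 0, with 1 member higher at an unadjusted p under 0.05 at day 14 in place of 3, 2 lower at day 5 in place of 0 and 0 higher in the difference of days in place of 2. Without the dye term 1 member was higher at day 14 and 1 in the difference. The day 14 arrays alone called 260 genes (88 higher, 172 lower) and array weights 584 (218 higher, 366 lower), with 2 and 1 members lower at an unadjusted p under 0.05. With the day 14 arrays alone 11.7% of all genes were lower by that rule. Array weights also gave 1 member lower at day 5, and C1qb and C1qc at day 14 missed the threshold (adjusted p = 0.0509 and 0.0505). Scaling each array to the mean spread gave 1 gene called at day 14, and 1 member higher and 1 lower at day 5. Without day 5 arrays 3 and 4, chosen after seeing the data, 2 members were lower at each day (6.35% of all genes at day 5 and 10.3% at day 14). That setting has no dye exchange at day 5. In the difference C1qb lost its unadjusted p under 0.05 and Serping1 gained one. For the turned arrays, no dye term, weights and scaling, the share of all genes at an unadjusted p under 0.05 was not computed. Those member counts therefore stand without a baseline.

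With each array left out in turn, genes called at day 14 ranged from 0 to 1. Members at an unadjusted p under 0.05 ranged from 2 to 4 higher and 0 to 2 lower at day 14, from 0 to 1 higher and 0 to 3 lower at day 5, and from 2 to 5 higher in the difference. The highest, 3 lower at day 5 and 5 higher in the difference, came without day 5 array 4. There 14.6% of all genes were lower at day 5. Apart from day 5 array 3, that share was not computed for other arrays left out, nor for the difference with any array left out. With array number as a replicate block, 3 members were higher at day 14 and 2 in the difference at an unadjusted p under 0.05 (limma), as without it. The share of all genes by that rule was not computed for the block, so these counts stand without a baseline. At day 14 the fit with the block called 0 genes, as did the first fit. Same-numbered arrays of the days had r of 0.364 to 0.638 across genes before the dye term and −0.645 to 0.144 after it. Fitting that term itself pulls such correlations below 0, so these values cannot show whether the arrays were pairs. Because the numbers share a dye orientation, they were not taken as pairs.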

Other observations

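Partners of the 7 genes in the cascade or in the genome had values of their own. C2, the neighbour of Cfb and a protease of the classical pathway, had −0.34, −0.22, −1.36 and −0.41 on arrays 1 to 4 of day 14, all below 0 as for Cfb, and a fitted ratio of −0.58 ± 0.25 (limma, adjusted p = 0.517). Cfp, properdin, which stabilises the alternative convertase, had 0.52, 0.60, −1.12 and −0.73 on the same arrays, so its sign followed the dye. C1s1, the protease partner of C1ra, had 1.23, −0.97, −1.12 and 0.63, a spread with no order by dye. Clu, which was below 0 on all 4 day 14 arrays, reached 2.50 on day 5 array 1 and 1.42 on day 5 array 3. Of 10 epididymis and testis markers, 4 exceeded 1 on that array 1 and 6 on that array 3, and they were not all the same markers. Lcn5, Lcn8 and Adam7 stood at 2.83, 2.18 and 2.63 on array 1. On array 3 they stood at −2.06, −0.43 and −1.59. The part of these markers in the Clu values was not tested.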
